A study of Mus musculus with 9 samples.

Results

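The primary cilium and intraflagellar transport genes described here are 44 mouse genes, listed by symbol, for the parts of the cilium in which vertebrate cells receive Sonic hedgehog (Shh). Of the 44, 43 had a row under their symbol among the 38197 symbols of the tables, and all 43 passed the filter on low counts that left 14742 genes for testing. Ift22 had no row. RefSeq gives Rabl5 as a synonym of Ift22, and the row of that name is described separately and not counted. The list was drawn up by role in the cilium, with earlier results of these data known.

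A primary cilium is a single antenna of microtubules that grows from the mother centriole of a resting or cycling cell. Intraflagellar transport (IFT) carries its proteins: IFT-B trains move outward with kinesin-2, IFT-A trains return with dynein-2, the BBSome couples membrane proteins to the trains, and the transition zone at the base gates entry. In the neural tube, Ptch1 leaves and Smo enters the cilium when Shh is present, and Gli proteins pass through its tip to be turned into activators or repressors.

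RNA was measured in mouse embryonic stem cells (E14.1, strain 129, wild type) differentiated in monolayer toward ventral hindbrain neural progenitors. All libraries shared treatment with retinoic acid (RA) and the Smo agonist SAG, given according to the sample labels over 0 to 3 days in differentiation conditions (DDC), and all came from cells sorted on magnetic beads for Prominin-1, a surface protein of progenitors. Groups were the time points 4.5DDC, 5.5DDC and 6.5DDC, with 3 libraries each, made by polyA selection from total RNA. The titles give these times, while the source names count whole days and the growth medium was described as changed later than the label says, so the hours since withdrawal of RA and SAG are not exact. One cell line was used, and the labels do not say whether the replicates were separate cultures, so p-values measure only the spread between these libraries.

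Total counts ran from 11066572 in replicate 3 of 5.5DDC to 25506192 in replicate 1 of 5.5DDC. At 4.5DDC they were between 11244489 and 17820600, and at 6.5DDC between 12851795 and 16479971. Replicate 1 of each time point stood apart from the other libraries. On the second principal component of all genes tested, which held 27.2% of the variance, the replicate 1 libraries scored 23.9, 54.5 and 49.3 from 4.5DDC to 6.5DDC, and the other 6 libraries between -44.6 and -3.12. Results are therefore also given with replicates 2 and 3 alone.

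Most of the cilium genes were moderately expressed. FPKM, a read count scaled to transcript length and library size, had a median of 17.7 over the 43 members when averaged over the 9 libraries, against 11.6 over all genes tested. The mean was above 10 FPKM for 32 members and under 5 FPKM for 4. Read counts of members ran from 12, for Kif17, to 4365, for Tctn2, and 41 of the 43 had over 100 counts in every library. Summed over the members, FPKM was 1022, 878 and 954 in replicates 1 to 3 of 4.5DDC, 1218, 1054 and 1027 at 5.5DDC, and 1307, 1252 and 1185 at 6.5DDC. The sum was higher in each library of 5.5DDC and of 6.5DDC than in any of 4.5DDC. In bulk RNA, fewer cells of a type and less RNA per cell cannot be told apart.

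Between 4.5DDC and 6.5DDC most cilium genes had higher values at the end. Of the 43 members, 11 were higher at 6.5DDC at an adjusted p under 0.05 by edgeR's quasi-likelihood test, beside 9.21% of all genes tested, and 1 was lower, beside 9.53% of all genes tested. The risers were Ift57 and Ift81 of IFT-B, Wdr19 of IFT-A, the motor subunits Kif3a and Dync2li1, the BBSome subunits Bbs2, Bbs4 and Bbs9, and Tctn2, Tctn3 and Rpgrip1l of the transition zone. Evc was the gene that fell. The median log2 fold change of the members was 0.27, with 34 of 43 above 0 (the same 34 under RLE scaling and with library totals only), whereas the median of all genes tested was 0.00, with 49.6% above 0. Scaled counts of all 3 libraries at 6.5DDC lay above all 3 at 4.5DDC for 22 members, beside 17.5% of all genes tested, and below them for 2, beside 17.6%. Chance alone gives 10% for 3 libraries against 3, both directions together.

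**Figure D1:**
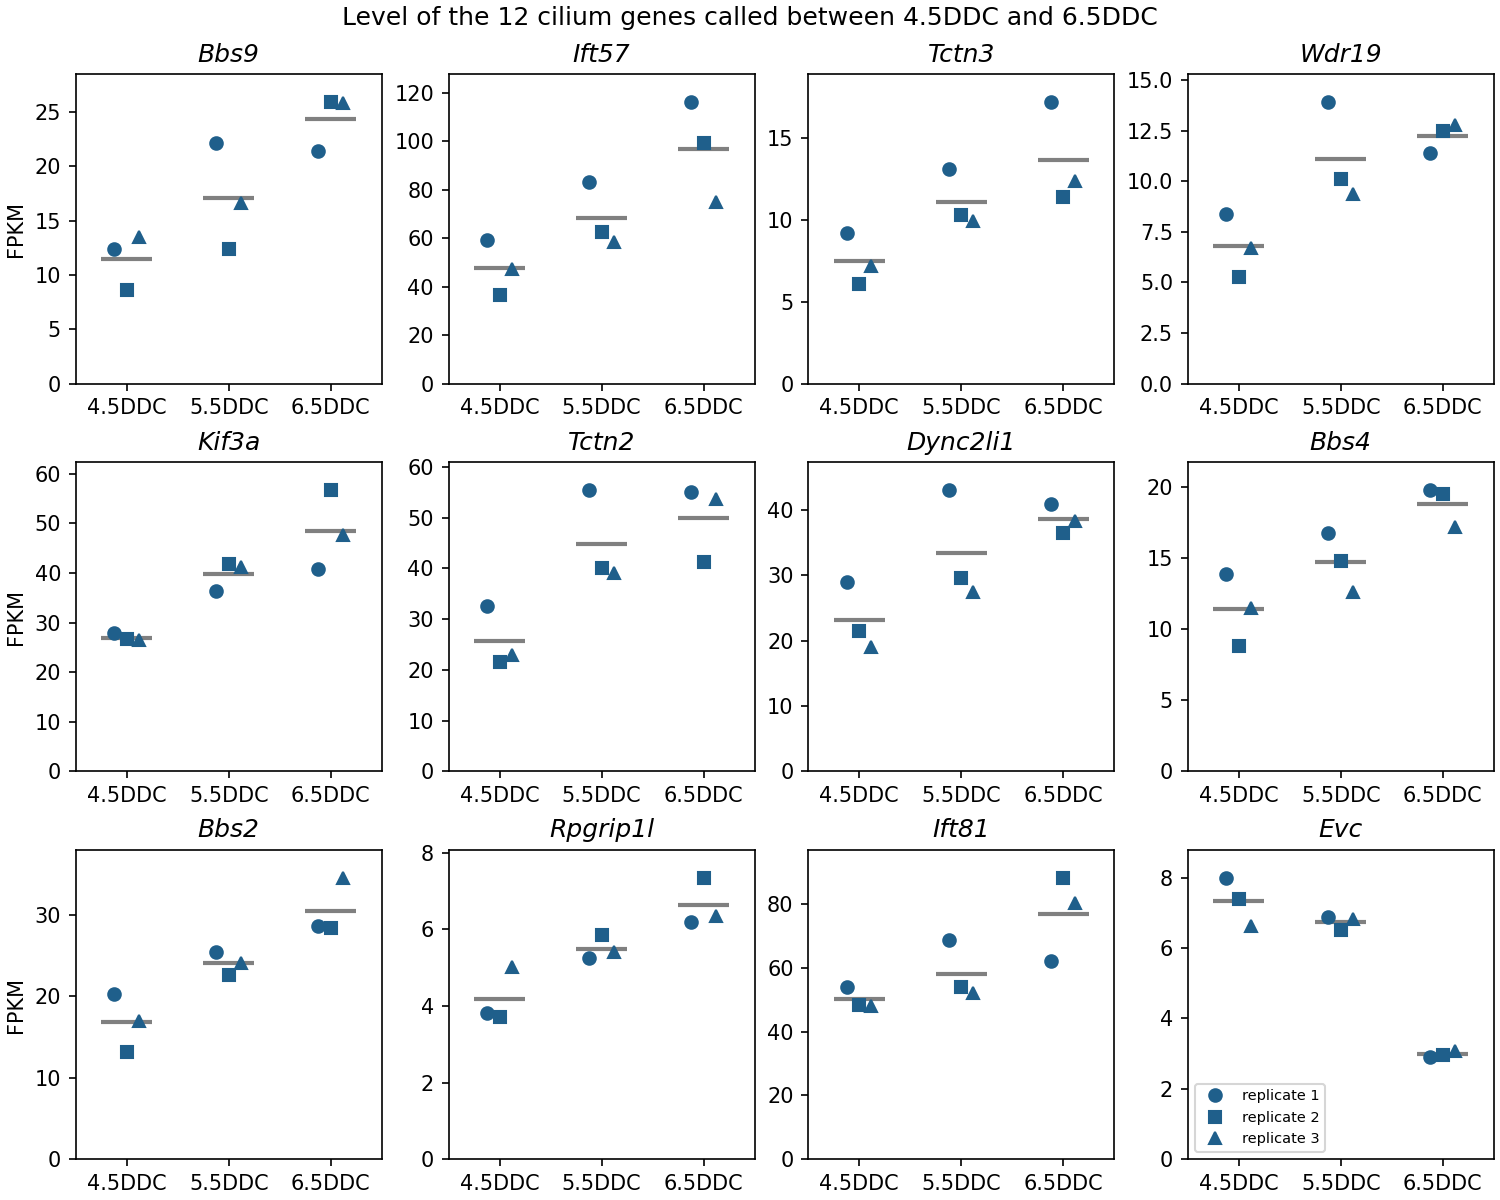
FPKM of the 12 members called between 4.5DDC and 6.5DDC, each on its own vertical axis from 0, against time point, with 1 point per library shaped by replicate number and a grey bar for the mean of each time point. For all 12 the libraries of 4.5DDC and 6.5DDC do not overlap, with Evc lower at 6.5DDC and the other 11 higher. The 12 were picked by the test on these same libraries, so the separation adds no further support.

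The number of members called depended on single libraries. Without 4.5DDC replicate 2 only Kif3a and Evc were called, 1 member higher and 1 lower. Calls came to 6 without 4.5DDC replicate 3, with 5 of them higher, and to 4 without 6.5DDC replicate 2, with 3 of them higher. Leaving out 6.5DDC replicate 1 gave 7 higher members and 1 lower. Of all genes tested, 9.21% were called higher with every library, 3.36% without 4.5DDC replicate 2, 5.81% without 4.5DDC replicate 3, 3.86% without 6.5DDC replicate 2 and 10.4% without 6.5DDC replicate 1. Kif3a and Evc were called under each of 21 alternative settings, with highest adjusted p values of 0.0434 and 0.0308.

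With replicates 2 and 3 alone, 12 members were higher and 1 lower, beside 16.5% and 14.8% of all genes tested in that fit, and the median log2 fold change of the members was 0.37. Ift172 and Kif17 joined the higher members in that fit and Rpgrip1l left them. Libraries of the same number were not alike across genes over this span apart from replicate 1, and with them paired by number nonetheless, 31 of 43 members were higher at 6.5DDC in replicate 1, 34 in replicate 2 and 33 in replicate 3, with median log2 differences of 0.25, 0.50 and 0.23. Members higher in all 3 numbers were 24 and members lower in all 3 were 3, beside 25.5% and 22.3% of all genes tested. Against the mean of 4.5DDC, the median log2 level of the members was 0.40, 0.12 and 0.14 in the libraries of 5.5DDC and 0.36, 0.30 and 0.25 in those of 6.5DDC, with the libraries of 4.5DDC themselves at 0.15, -0.18 and 0.04.

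**Figure D2:**
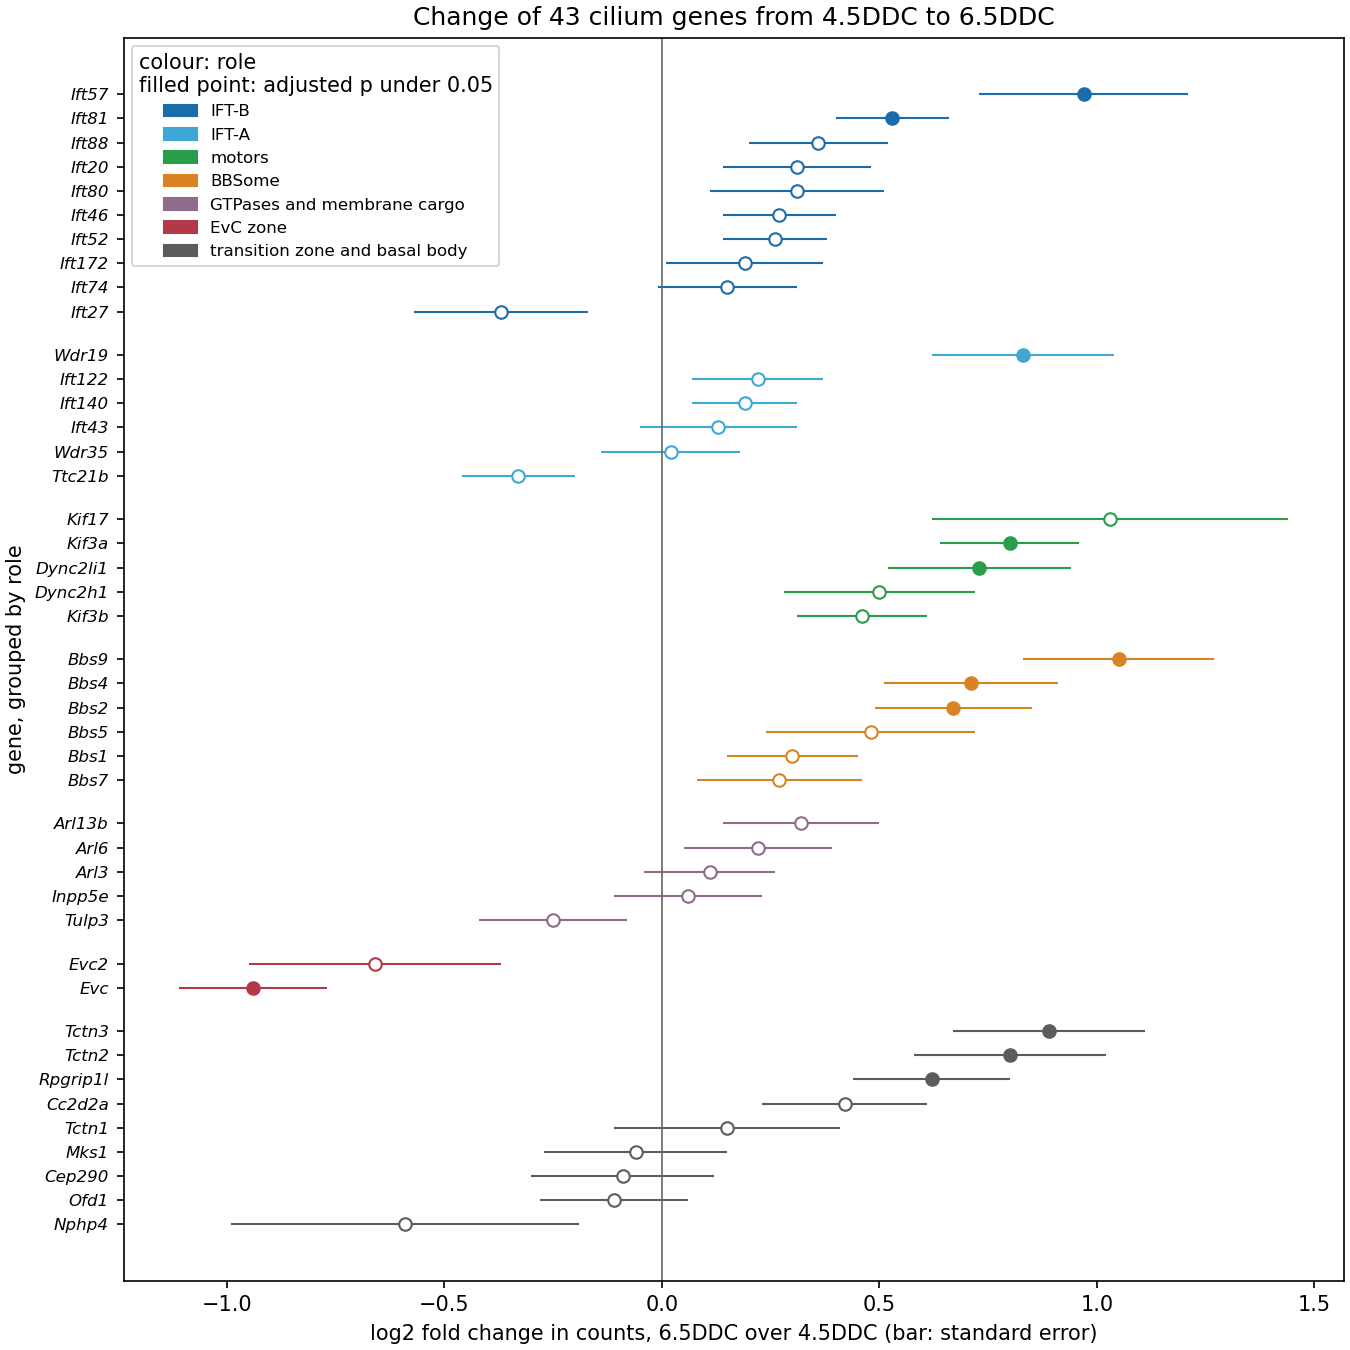
Log2 fold change in counts of 43 cilium genes from 4.5DDC to 6.5DDC, grouped by role, with standard errors as bars and filled points where the adjusted p was under 0.05. All 5 motor genes and all 6 BBSome genes lie to the right of 0, both EvC genes to the left, and 34 of the 43 to the right in all.

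Among the members, 5 of the 11 risers share a promoter motif that is shown first because it is common to genes of several roles. The X-box, the motif bound by RFX transcription factors and long known from ciliary promoters, was searched as GTNNCC followed by GGNNAC with 0 to 3 bases between, which reads the same on both strands. RefSeq promoters on GRCm38.p6, 250 bases before to 50 bases after a transcription start, matched 40 of the 44 members (Ift80, Ift81, Ift122 and Dync2li1 had no entry). The motif was present in 11 of the 40 (27.5%), in 4.38% of 27025 genes with such a window and in 5.87% of the 9997 of these that were tested for expression. It was found for 5 of the 9 risers with a window (55.6%) and for 5 of the 29 members that were not called (17.2%), a difference that was not tested. This split depends on the calls: without 4.5DDC replicate 2 every riser but Kif3a lost its call, and the window of Kif3a does not hold the motif. Nphp4 and Tctn1, which were not called, also hold the motif and are not shown. The windows of 30 bases around the motif are given for the 5 risers and for 3 members that were not called, 5′ to 3′ on the strand of the gene, with both arms of the motif in capitals.
Ift57 chr16:49699199-49699228 plus strand: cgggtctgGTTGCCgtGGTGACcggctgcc
Ift57 chr16:49699226-49699255 plus strand: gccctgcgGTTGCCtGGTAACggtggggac
Wdr19 chr5:65199654-65199683 plus strand: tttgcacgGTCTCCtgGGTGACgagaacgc
Bbs4 chr9:59353464-59353493 minus strand: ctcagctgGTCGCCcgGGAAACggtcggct
Tctn2 chr5:124598679-124598708 plus strand: gattggagGTTACCatGGCTACtggtcctc
Tctn3 chr19:40612350-40612379 minus strand: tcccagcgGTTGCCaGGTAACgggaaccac
Bbs1 chr19:4906605-4906634 minus strand: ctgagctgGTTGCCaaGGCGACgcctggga
Bbs7 chr3:36613489-36613518 minus strand: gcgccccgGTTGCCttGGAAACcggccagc
Mks1 chr11:87853183-87853212 plus strand: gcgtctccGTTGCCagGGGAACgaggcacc
In the 13 matches found over all members, including 2 in Ift22, the arms were 1 or 2 bases apart, and 10 of the 13 began before the transcription start. A stricter form of 1 arm, GTTNCC, which not every match of the full motif holds (Wdr19 has GTCTCC and GGTGAC), was searched alone on either strand and was in 82.5% of the members' windows, 48.8% of all windows and 51.6% of those of tested genes, and in 66.7% of the risers' windows and 86.2% of those of the members not called. Such a match describes letters in the window and not a bound site.

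IFT-B proteins form the trains that move toward the ciliary tip. Of the 10 IFT-B genes measured, Ift57 and Ift81 were called higher from 4.5DDC to 6.5DDC, beside 9.21% of all genes tested. None of the 10 was called lower, beside 9.53%, and the median log2 fold change was 0.29. Ift57 (chr16:49699233-49765126), a peripheral subunit, was at 59.2, 36.4 and 47.2 FPKM in replicates 1 to 3 of 4.5DDC, 83.3, 62.5 and 58.5 at 5.5DDC, and 116, 99.1 and 74.7 at 6.5DDC. All libraries of 6.5DDC lay above those of 4.5DDC, and those of 5.5DDC overlapped both groups in FPKM, though in scaled counts only that of 6.5DDC. Its log2 fold change was 0.97 ± 0.24 (SE, n = 3 per time point), a 1.96-fold rise, with an adjusted p of 0.0229 by edgeR's quasi-likelihood test. The Ift57 call was lost without 4.5DDC replicate 2 (adjusted p = 0.0866), 6.5DDC replicate 1 (0.0507) or 6.5DDC replicate 2 (0.0625), within a range of 0.00209 to 0.0866 over 21 alternatives. In GENCODE, 7.86% of its exonic bases are also exonic in Gm15518 on the other strand, and the strand setting of the counts is not given in the sources used here.

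Ift81 (chr5:122550204-122614518), which binds tubulin as part of the IFT-B core, was at 53.8, 48.3 and 48.1 FPKM at 4.5DDC, 68.7, 53.8 and 52.0 at 5.5DDC, and 62.0, 88.1 and 80.3 at 6.5DDC. The groups of 4.5DDC and 6.5DDC did not overlap, either in FPKM or in scaled counts. In edgeR the log2 fold change over the whole span was 0.53 ± 0.13 (SE) with an adjusted p of 0.0237. Its call was lost without 4.5DDC replicate 1 (adjusted p = 0.0548), 4.5DDC replicate 2 (0.0917) or 6.5DDC replicate 2 (0.0941), within a range of 0.00389 to 0.0941. Ift46, the most abundant member of the whole list, was at 169, 170 and 174 FPKM at 4.5DDC, 187, 187 and 165 at 5.5DDC, and 224, 197 and 178 at 6.5DDC. The 6.5DDC libraries lay just above those of 4.5DDC, with a log2 difference of 0.27 ± 0.13 (SE) that did not pass the test (adjusted p = 0.169, edgeR). The other 7 IFT-B genes had log2 differences between -0.37, for Ift27, and 0.36, for Ift88. Rabl5, the row that RefSeq links to Ift22, was at 21.8, 23.8 and 17.7 FPKM at 4.5DDC, 36.3, 26.3 and 29.5 at 5.5DDC, and 34.6, 23.3 and 27.9 at 6.5DDC, where replicate 2 overlapped 4.5DDC in FPKM but not in scaled counts. Its log2 difference over the whole span was 0.44 ± 0.20 (SE, adjusted p = 0.152 by edgeR).

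IFT-A proteins form the returning trains and bring membrane receptors into the cilium. Wdr19 was the riser among 6 genes, beside 9.21% of all genes tested that were called higher. None of the 6 was called lower, beside 9.53%, and the median log2 fold change was 0.16. Wdr19 (chr5:65199696-65260415), known as IFT144, was at 8.39, 5.25 and 6.70 FPKM at 4.5DDC, 13.9, 10.1 and 9.37 at 5.5DDC, and 11.4, 12.5 and 12.8 at 6.5DDC. Every library of 5.5DDC and 6.5DDC was above every library of 4.5DDC, and the later groups overlapped. Over the whole span its log2 fold change was 0.83 ± 0.21 (SE, adjusted p = 0.0229 by edgeR). The Wdr19 call was lost without 4.5DDC replicate 2 (adjusted p = 0.077), 4.5DDC replicate 3 (0.0555) or 6.5DDC replicate 2 (0.0762), within a range of 0.00285 to 0.077.

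Ift43, the IFT-A gene with the highest mean, was at 39.3, 33.3 and 28.6 FPKM at 4.5DDC, 38.8, 33.3 and 36.0 at 5.5DDC, and 42.4, 32.7 and 37.2 at 6.5DDC. Its groups overlapped throughout, with a log2 difference of 0.13 ± 0.18 (SE, adjusted p = 0.636 by edgeR) from 4.5DDC to 6.5DDC. The Ift43 difference lay between 0.0 and 0.23 when single libraries were left out. Ttc21b, named after its values were seen, was one of 2 members whose libraries at 6.5DDC all lay below those of 4.5DDC. It was at 12.3, 11.2 and 14.2 FPKM at 4.5DDC, 11, 10.9 and 11 at 5.5DDC, and 10.6, 10.1 and 10.6 at 6.5DDC, and the log2 difference of -0.33 ± 0.13 (SE) did not pass the test (adjusted p = 0.105, edgeR).

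Motor genes had the highest median of the 7 role classes, at a log2 fold change of 0.73. For all 5, scaled counts of the 6.5DDC libraries lay above those of 4.5DDC, beside 17.5% of all genes tested. Kif3a and Dync2li1 passed the test, beside 9.21% of all genes tested that were called higher. Kif3a (chr11:53567379-53601967), the motor subunit of kinesin-2 whose loss removes cilia, was at 27.8, 26.6 and 26.5 FPKM at 4.5DDC, 36.4, 41.8 and 41.3 at 5.5DDC, and 40.9, 56.7 and 47.6 at 6.5DDC. The libraries of 4.5DDC were below all later ones, and replicate 1 of 6.5DDC lay within the range of 5.5DDC. Its log2 fold change was 0.80 ± 0.16 (SE), a 1.75-fold rise, with an adjusted p of 0.00932 by edgeR and a range of 0.000151 to 0.0434 over 21 alternatives. Kif3b, its partner in the motor, was named after its values were seen. It was at 11.5, 10.2 and 12.3 FPKM at 4.5DDC, 11.3, 13.1 and 12.9 at 5.5DDC, and 17.0, 15.9 and 14.2 at 6.5DDC. Here the 6.5DDC libraries lay above both earlier groups, and the log2 difference of 0.46 ± 0.15 (SE) missed the threshold in edgeR (adjusted p = 0.0537) and passed it in DESeq2.

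Dync2li1 (chr17:84626496-84655588), the light intermediate chain of dynein-2, was at 29.0, 21.5 and 19.0 FPKM at 4.5DDC, 43, 29.6 and 27.5 at 5.5DDC, and 40.9, 36.4 and 38.3 at 6.5DDC. The libraries of 6.5DDC lay above those of 4.5DDC, and replicate 1 was the highest library of each time point. Its log2 fold change was 0.73 ± 0.21 (SE, adjusted p = 0.0381 by edgeR). This call was lost without 4.5DDC replicate 2 (adjusted p = 0.13), 4.5DDC replicate 3 (0.104), 5.5DDC replicate 2 (0.0571), 6.5DDC replicate 1 (0.0761), 6.5DDC replicate 2 (0.0914) or 6.5DDC replicate 3 (0.0605), within a range of 0.00312 to 0.13. Kif17, a kinesin-2 of some sensory and neuronal cilia, had the fewest reads of all members, at 0.451, 0.244 and 0.238 FPKM at 4.5DDC, 1.07, 0.617 and 0.80 at 5.5DDC, and 0.487, 0.56 and 0.985 at 6.5DDC. All later libraries were above those of 4.5DDC, and 5.5DDC and 6.5DDC overlapped. With counts from 12 to 109, its log2 difference over the span was 1.03 ± 0.41 (SE, adjusted p = 0.105 by edgeR), and with replicates 2 and 3 alone it passed (adjusted p = 0.0229, in a range of 0.0229 to 0.281).

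The BBSome carries receptors such as Smo and Gpr161 out of the cilium on IFT trains. All 6 of its genes had positive log2 fold changes, with a median of 0.57. Bbs2, Bbs4 and Bbs9 rose, beside 9.21% of all genes tested that were called higher. Bbs9 (chr9:22475715-22888280) was at 12.4, 8.60 and 13.5 FPKM at 4.5DDC, 22.2, 12.4 and 16.6 at 5.5DDC, and 21.4, 25.9 and 25.8 at 6.5DDC. No library of 6.5DDC overlapped 4.5DDC, whereas 5.5DDC overlapped both in FPKM and only 6.5DDC in scaled counts. Its log2 fold change of 1.05 ± 0.22 (SE), a 2.07-fold rise, had an adjusted p of 0.0124 by edgeR. The Bbs9 call was lost without 4.5DDC replicate 2 (adjusted p = 0.0541) or 6.5DDC replicate 2 (0.0543), within a range of 0.000267 to 0.0543.

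Bbs2 (chr8:94067954-94098928), the most abundant of the 6, was at 20.3, 13.1 and 17.0 FPKM at 4.5DDC, 25.4, 22.6 and 24.1 at 5.5DDC, and 28.6, 28.4 and 34.5 at 6.5DDC. In FPKM the 3 groups did not overlap, while in scaled counts 4.5DDC and 5.5DDC did. In counts its log2 fold change was 0.67 ± 0.18 (SE, adjusted p = 0.0303 by edgeR). That call was lost without 4.5DDC replicate 2 (adjusted p = 0.104), 4.5DDC replicate 3 (0.072), 5.5DDC replicate 3 (0.0529), 6.5DDC replicate 2 (0.0909) or 6.5DDC replicate 3 (0.065), and with only the 6 libraries compared (0.0545), within a range of 0.00578 to 0.104. Bbs4 (chr9:59321990-59353508), a subunit that binds pericentriolar proteins, was at 13.9, 8.86 and 11.5 FPKM at 4.5DDC, 16.8, 14.8 and 12.6 at 5.5DDC, and 19.8, 19.5 and 17.2 at 6.5DDC. Every library of 6.5DDC was above those of both earlier time points, which overlapped each other. Bbs4 rose by a log2 fold change of 0.71 ± 0.20 (SE, adjusted p = 0.0338 by edgeR). Its call was lost without 4.5DDC replicate 2 (adjusted p = 0.105), 4.5DDC replicate 3 (0.0663), 5.5DDC replicate 2 (0.0592), 6.5DDC replicate 1 (0.066) or 6.5DDC replicate 2 (0.108), and with only the 6 libraries compared (0.0549), within a range of 0.00803 to 0.108. The other BBSome genes, Bbs1, Bbs5 and Bbs7, had log2 differences of 0.30, 0.48 and 0.27 and were not called. Bbs1 and Bbs7 hold the motif shown above, as does Bbs4.

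The 5 genes for ciliary GTPases and membrane cargo had 0 calls in either direction by edgeR, 0 at an unadjusted p under 0.05 and 0 by DESeq2, with a median log2 fold change of 0.11. Arl13b, the GTPase of the ciliary membrane that the study stained, was at 9.89, 8.05 and 10.6 FPKM at 4.5DDC, 13.4, 15.0 and 10.8 at 5.5DDC, and 12, 13.8 and 14.9 at 6.5DDC. In FPKM all libraries of the later time points lay above those of 4.5DDC, and in scaled counts those of 6.5DDC alone, though the log2 difference in counts of 0.32 ± 0.18 (SE) to 6.5DDC did not pass the test (adjusted p = 0.226, edgeR). That difference lay between 0.2 and 0.38 when single libraries were left out. Arl3, which releases lipidated cargo inside the cilium, was at 62.3, 63.5 and 46.2 FPKM at 4.5DDC, 72.8, 67.7 and 67.8 at 5.5DDC, and 67.1, 55.0 and 64.0 at 6.5DDC. Its 5.5DDC libraries were the highest in FPKM but overlapped 6.5DDC in scaled counts, and the groups of 4.5DDC and 6.5DDC overlapped (log2 difference 0.11 ± 0.15 SE, adjusted p = 0.639 by edgeR). The Arl3 difference lay between 0.0 and 0.19 when single libraries were left out. For Tulp3, which brings receptors such as Gpr161 into the cilium, the log2 difference was -0.25.

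Evc and Evc2 encode a complex at the base of the cilium, in the EvC zone, that binds Smo and passes the Shh signal to Gli proteins. Both had negative log2 fold changes, and Evc fell, beside 9.53% of all genes tested that were called lower. Evc (chr5:37289098-37336894) was at 7.99, 7.39 and 6.63 FPKM at 4.5DDC, 6.88, 6.51 and 6.83 at 5.5DDC, and 2.90, 2.97 and 3.07 at 6.5DDC. The first groups overlapped, and all libraries of 6.5DDC lay below them within a narrow range. Evc had a log2 fold change of -0.94 ± 0.17 (SE) over the whole span, with an adjusted p of 0.00611 by edgeR and a range of 4.13e-06 to 0.0308 over 21 alternatives. On the FPKM scale the log2 ratio of the means was -1.30. Evc2, the neighbouring gene on the other strand (chr5:37338499-37425055), was named after its values were seen and was at 4.90, 4.63 and 3.59 FPKM at 4.5DDC, 7.20, 4.42 and 3.72 at 5.5DDC, and 1.92, 2.38 and 3.83 at 6.5DDC. Replicate 3 of 6.5DDC overlapped both earlier groups in FPKM, though in scaled counts only that of 4.5DDC, and the log2 difference of -0.66 ± 0.29 (SE) did not pass the test (adjusted p = 0.135, edgeR).

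With every library included, transition zone and basal body genes were divided. Of 9, Tctn2, Tctn3 and Rpgrip1l rose, beside 9.21% of all genes tested that were called higher. Log2 fold changes were positive for 5 of the 9 and negative for 4, and the median was 0.15. With replicates 2 and 3 alone, 7 were positive and 2 negative, and the median was 0.42. Tctn2 (chr5:124598749-124627738), a tectonic of the complex that admits membrane proteins, was at 32.5, 21.6 and 22.9 FPKM at 4.5DDC, 55.4, 40.0 and 39.1 at 5.5DDC, and 55.1, 41.2 and 53.7 at 6.5DDC. Every later library was above every library of 4.5DDC, and 5.5DDC and 6.5DDC overlapped. Tctn2 had a log2 fold change of 0.80 ± 0.22 (SE), a 1.74-fold rise, with an adjusted p of 0.0318 by edgeR. The Tctn2 call was lost without 4.5DDC replicate 2 (adjusted p = 0.117), 4.5DDC replicate 3 (0.0898), 6.5DDC replicate 1 (0.0636) or 6.5DDC replicate 3 (0.0738), within a range of 0.00227 to 0.117.

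Tctn3 (chr19:40596446-40612233), a second tectonic, was at 9.22, 6.10 and 7.18 FPKM at 4.5DDC, 13.1, 10.3 and 9.93 at 5.5DDC, and 17.2, 11.4 and 12.4 at 6.5DDC. Its later libraries lay above all of 4.5DDC, with replicate 1 the highest at each time point. Tctn3 rose by a log2 fold change of 0.89 ± 0.22 (SE, adjusted p = 0.0237 by edgeR). Its call was lost without 4.5DDC replicate 2 (adjusted p = 0.0913) or 4.5DDC replicate 3 (0.0628), within a range of 0.00157 to 0.0913. Rpgrip1l (chr8:91217030-91313262), a scaffold of the transition zone, was at 3.82, 3.72 and 5.03 FPKM at 4.5DDC, 5.24, 5.86 and 5.40 at 5.5DDC, and 6.20, 7.34 and 6.34 at 6.5DDC. Its 3 groups did not overlap in FPKM, but those of 4.5DDC and 5.5DDC overlapped in scaled counts. The log2 fold change was 0.62 ± 0.18 (SE, adjusted p = 0.0357 by edgeR). Rpgrip1l was no longer called with replicates 2 and 3 alone (adjusted p = 0.0783), with only the 6 libraries compared (0.0641) or without 4.5DDC replicate 1 (0.0996), 4.5DDC replicate 2 (0.13), 5.5DDC replicate 2 (0.0641), 5.5DDC replicate 3 (0.0625) or 6.5DDC replicate 2 (0.139), within a range of 0.00903 to 0.139. Among the 6 that were not called, Nphp4 had the most negative log2 difference, at -0.59, and Cc2d2a the most positive, at 0.42. In GENCODE 25.5% of the exonic bases of Tctn1 overlap exons of Gm15481 and Hvcn1 on the other strand, and 20.3% of those of Inpp5e overlap Pmpca.

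Counts and FPKM come from different programs and were compared for each member. No member's ratio of 6.5DDC over 4.5DDC differed by more than 1.5-fold between them. Among those farthest apart, Ift122 had a log2 ratio of 0.68 in FPKM and a log2 fold change of 0.22 in counts, and Inpp5e had 0.46 and 0.06. Their FPKM groups did not overlap between 4.5DDC and 6.5DDC, while their scaled counts did.

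The single days ask when the members moved. From 4.5DDC to 5.5DDC, 0 of the 43 members were called by edgeR, beside 0.0746% of all genes tested, with 9 members at an unadjusted p under 0.05, beside 15.4% of all genes tested, all 9 higher, and 0 calls by DESeq2, beside 1.97% higher and 1.38% lower of all genes tested, and by limma voom. The 9 were Ift172, Wdr19, Kif3a, Kif17, Dync2li1, Bbs1, Bbs9, Tctn2 and Tctn3, named after their values were seen. The median log2 fold change of the members was 0.21, or 0.12 without 5.5DDC replicate 1, against 0.01 for all genes tested, and 32 of 43 were above 0. Scaled counts of 5.5DDC lay above those of 4.5DDC for 12 members, beside 11.7% of all genes tested, and below for 1, Ttc21b, beside 13.7%. After the mean of each time point was removed, the replicate 1 libraries of these time points resembled each other across genes, with a correlation of 0.743. Replicates 2 and 3 of 4.5DDC had 0.386 and 0.452 with the same number and 0.291 and 0.39 with the other. Each was closer to its own number, though by little, so whether the numbers 2 and 3 mark pairs cannot be told. A fit with replicate number as a block was also made. With the block 1 member was called, beside 1.44% of all genes tested. That member was Tctn2, with a log2 fold change of 0.76 ± 0.15 (SE, adjusted p = 0.0489), in a range of 0.0215 to 0.478 over 21 alternatives, and it was also called with replicates 2 and 3 alone (adjusted p = 0.0477), beside 2.42% higher and 0.895% lower of all genes tested.

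From 5.5DDC to 6.5DDC, 0 members were called by edgeR, beside 0.224% of all genes tested, with 6 at an unadjusted p under 0.05, beside 18.5% of all genes tested, of which Ift20, Kif3b and Bbs9 were higher and Evc, Evc2 and Nphp4 lower. DESeq2 called 1, Evc, beside 1.68% higher and 2.88% lower of all genes tested, and limma voom 0. The median log2 fold change was 0.14, or 0.23 without 5.5DDC replicate 1 and 0.07 without 5.5DDC replicate 3, against 0.02 for all genes tested, with 27 of 43 above 0. Scaled counts of 6.5DDC lay above those of 5.5DDC for 8 members, beside 11.5% of all genes tested, and below for 4, beside 13.9%. The 4 were Ttc21b, Evc, Evc2 and Nphp4, named after their values were seen. For Evc the log2 difference was -0.13 ± 0.16 (SE) over the first day and -0.81 ± 0.17 (SE) over the second, where the adjusted p was 0.0855 by edgeR and 0.000822 by DESeq2, in a range of 0.000822 to 0.347 over 21 alternatives. For Tctn2 the log2 difference was 0.75 ± 0.22 (SE) over the first day and 0.04 ± 0.21 (SE) over the second, and the latter turned to -0.04 without 5.5DDC replicate 2, -0.06 without 5.5DDC replicate 3, -0.03 without 6.5DDC replicate 1 and -0.01 without 6.5DDC replicate 3. With the replicate block 0 members were called on the second day, beside 1.32% of all genes tested, and 5 had an unadjusted p under 0.05, beside 3080 of the 14742 genes. A block of replicate 1 against 2 and 3 called 1 member, Evc (adjusted p = 0.0293 by edgeR), beside 2.42% higher and 1.88% lower of all genes tested. Replicates 2 and 3 alone gave 2 calls, Bbs9 higher (adjusted p = 0.0397, in a range of 0.0397 to 0.632) and Evc lower (adjusted p = 0.047), beside 2.46% higher and 2.51% lower of all genes tested.

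Both days share the libraries of 5.5DDC, so their values stand side by side and the difference between the days was tested in the same fit. By edgeR it was called for 0 members and 0 genes in all, with 3 members and 701 genes at an unadjusted p under 0.05, and DESeq2 called 0. The 3 members were Ift172, Kif17 and Evc. A difference between the days was therefore not shown for any member, including Evc and Tctn2.

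**Figure D3:**
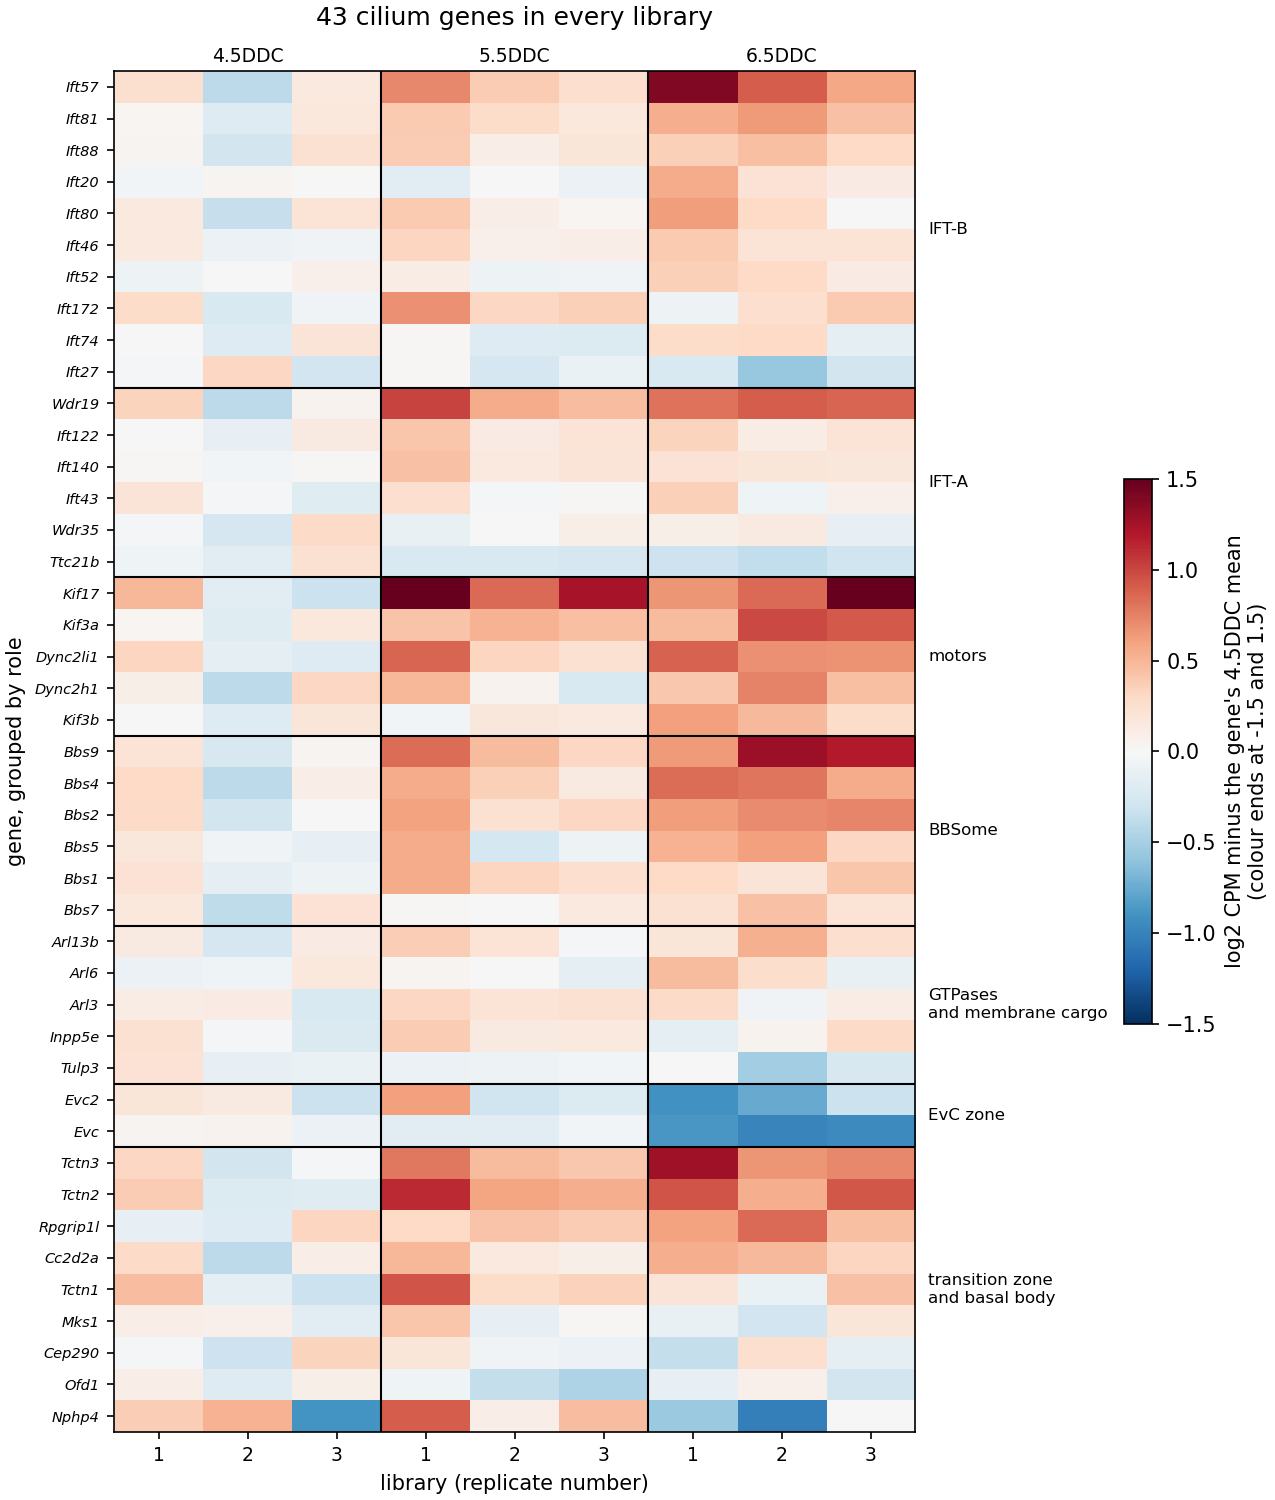
Colour map of the 43 members (vertical, grouped by role) in the 9 libraries (horizontal), showing log2 CPM (scaled counts) minus the mean of the gene at 4.5DDC, red above and blue below, with colours ending at -1.5 and 1.5. The median of the EvC class is at -0.88, -0.86 and -0.64 in the libraries of 6.5DDC, and that of the motor class at 0.61, 0.73 and 0.67.

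Other genes of the primary cilium were measured from 4 further lists. Of their 42 tested genes, 4 rose (9.52%, beside 9.21% of all genes tested) and 1 fell (2.38%, beside 9.53%) from 4.5DDC to 6.5DDC, with a median log2 fold change of 0.10. Among other IFT and motor subunits 1 of 11 rose, the IFT-B gene Ttc30b, from 5.52 ± 2.27 to 17.3 ± 3.40 FPKM (SD, n = 3; log2 fold change 1.75 ± 0.36 SE, adjusted p = 0.0111 by edgeR), and between 1 and 5 were called higher over 21 alternatives, with 2 without 6.5DDC replicate 1. Of 6 BBSome partners and chaperonin-like genes, Lztfl1, which regulates BBSome entry, rose (log2 fold change 0.56), with up to 3 called higher over the alternatives, and 0 were called when 4.5DDC replicates 1, 2 or 3, 5.5DDC replicates 2 or 3, or 6.5DDC replicates 1 or 2 were left out singly. Tmem67 (1.03) and Ahi1 (0.69) rose among 13 other transition zone genes, with up to 4 called higher over the alternatives and 1 without 4.5DDC replicate 2 or 6.5DDC replicate 2. Of 12 genes for distal appendages and assembly, Cep164, a marker of mother centrioles, fell by 0.62 on the log2 scale, and this call was lost, leaving 0, when 4.5DDC replicates 1 or 2, 5.5DDC replicates 2 or 3, or 6.5DDC replicates 1 or 2 were left out, while up to 2 were lower over the alternatives and 1 gene of that list was called higher without 6.5DDC replicate 1. Cep83 was not analysed here. The X-box motif was in 11 of 40 promoter windows of these 4 lists (27.5%).

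Among Shh pathway genes that act at the cilium, the receptor gene Ptch1 fell by 0.99 on the log2 scale, and Gli1, Gli2 and Gli3 by 3.02, 3.09 and 2.61, with adjusted p values of 0.00816, 0.00985, 0.00499 and 0.00107 by edgeR. Smo, the protein that enters the cilium, was at 45.8, 52.5 and 39.2 FPKM at 4.5DDC and 43.6, 30.8 and 36.2 at 6.5DDC, groups that overlapped (log2 difference -0.38 ± 0.18 SE, adjusted p = 0.155 by edgeR).

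Of 6 RFX genes, Rfx4 rose, from 208 ± 54.2 to 330 ± 27.9 FPKM (SD, n = 3; log2 fold change 0.60 ± 0.17 SE, adjusted p = 0.0374 by edgeR), and its call was lost, leaving 0, when 4.5DDC replicates 2 or 3, 5.5DDC replicates 2 or 3, or any single library of 6.5DDC was left out, with up to 2 RFX genes called higher over the alternatives. Genes for motile cilia, a different organelle, had a median log2 fold change of 1.0 with 4 of 15 tested genes higher. Of all genes tested, 9.21% were called higher over this span. Among the 4 were Dynlrb2 (2.55) and Spef2 (2.46), both with few reads, at 2 to 71 and 17 to 292 counts. The count of higher motile cilium genes was 1 without 4.5DDC replicate 2, 4.5DDC replicate 3 or 6.5DDC replicate 2. It was 2 without 5.5DDC replicates 2 or 3 or 6.5DDC replicates 1 or 3. With replicates 2 and 3 alone it was 10, beside 16.5% of all genes tested in that fit. The summed level of the motile cilium genes was 56.9, 33.3 and 27.2 FPKM at 4.5DDC, 116, 61.8 and 61.0 at 5.5DDC and 90.3, 76.1 and 84.5 at 6.5DDC. The most abundant was Ccdc39, at a mean of 14.3 FPKM, while Gmnc was at 0 in every library and Mcidas, Ccno and Hydin were under 1 FPKM in all. Dnah5, Dnah9 and Dnah11 were not analysed here. Their part in the members' changes was not tested.

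Cilia are taken apart before mitosis. Most genes listed for that step and for division were called lower at 6.5DDC, beside 9.53% of all genes tested. Of 8 genes for cilium disassembly 5 fell, among them Plk1 (log2 fold change -1.79) and Aurka (-1.53), and of 8 for centriole assembly 6 fell, among them Cep152 (-1.28) and Plk4 (-1.24). All 10 proliferation genes fell, with a median of -1.21 and with Mcm5 at -2.10 and Pcna at -1.72, and 6 were called without 6.5DDC replicate 2. Summed over the 10, proliferation genes were at 1186, 1406 and 1495 FPKM at 4.5DDC, 803, 1004 and 1011 at 5.5DDC and 736, 593 and 392 at 6.5DDC, with Top2a the most abundant at a mean of 230 FPKM. The libraries of each time point did not overlap in this sum, whereas the summed FPKM of the cilium genes at 5.5DDC and 6.5DDC did. The part of cell division in the members' changes was not tested.

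**Figure D4:**
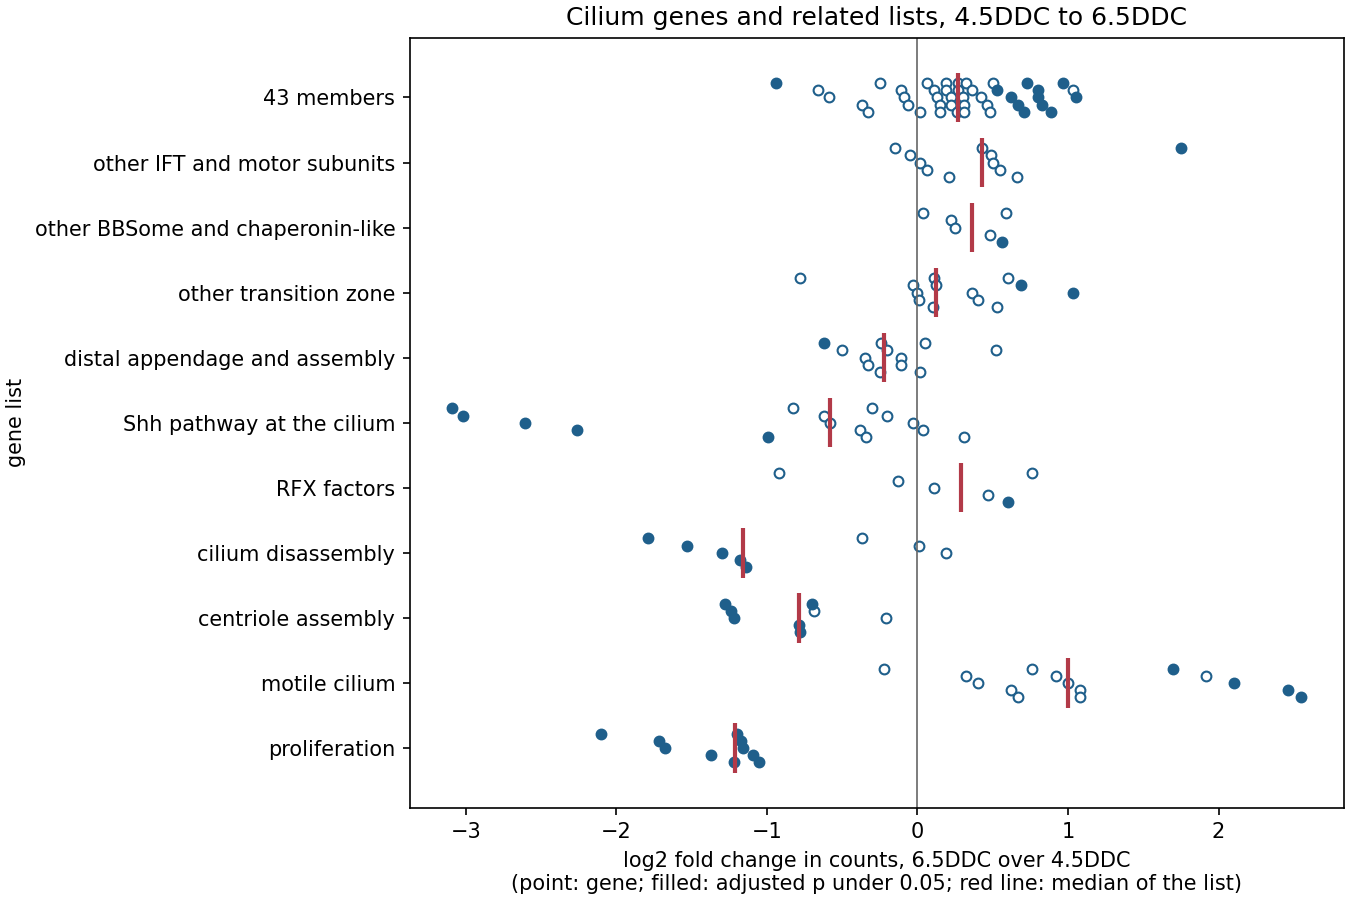
Log2 fold change from 4.5DDC to 6.5DDC of the genes in the cilium list and in the other lists, with 1 point per gene, filled where the adjusted p was under 0.05, and a red line for the median of each list. The line of the 43 members is at 0.27, that of motile cilium genes at 1.0 and that of proliferation genes at -1.21.

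Some markers of cell types were called over the same span, over which 9.21% of all genes tested were called higher and 9.53% lower. Of 13 progenitor markers 1 rose, Prom1, the gene of the sorted antigen (log2 fold change 1.19; up to 2 over the alternatives), and 2 fell, Sox3 (-1.80) and Nkx6-1 (-1.14), with 4 lower without 4.5DDC replicate 1 and 0 without 4.5DDC replicate 2 or 6.5DDC replicate 2. Their sum was at 2316, 2702 and 2208 FPKM at 4.5DDC, 3218, 2852 and 3109 at 5.5DDC and 3108, 2979 and 3150 at 6.5DDC. Most of it was Vim, at a mean of 1791 FPKM, and 7 of the 13 progenitor markers had positive and 6 negative log2 fold changes. Of 11 neuron markers 2 rose, Syt1 (3.19) and Map2 (1.65), and Isl1 fell (-2.44), although the cells were sorted for a progenitor antigen, and over 21 alternatives between 2 and 5 were higher and 1 or 2 lower. Neuron markers summed to 231, 491 and 368 FPKM at 4.5DDC, 195, 560 and 575 at 5.5DDC and 321, 719 and 765 at 6.5DDC, lowest in replicate 1 of each time point, with Stmn2 the most abundant at a mean of 108 FPKM. Tubb3 was not analysed here. Serotonergic markers rose in 5 of 6 cases, among them Slc6a4 (5.95) and Fev (5.14), both under 0.1 FPKM in every library of 4.5DDC and at most 1.45 and 2.54 FPKM at 6.5DDC, while their sum was 16.2, 10.9 and 8.01 FPKM at 4.5DDC, 33, 27 and 22.9 at 5.5DDC and 21.7, 21.6 and 31.3 at 6.5DDC. Lmx1b, the most abundant, was the one that was not called (log2 difference 0.52 ± 0.38 SE, adjusted p = 0.353 by edgeR).

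Twist1 was the gene called among 5 tested markers of neural crest and mesenchyme (log2 fold change 0.74), a call lost, leaving 0, when any single library of 4.5DDC, 5.5DDC replicate 2 or 6.5DDC replicate 2 was left out, with up to 4 called higher over the alternatives. That list summed to 6.97, 10.6 and 6.39 FPKM at 4.5DDC, 12.1, 17.9 and 16 at 5.5DDC and 16, 16.9 and 22.2 at 6.5DDC, and Sox10, Foxd3, Prrx1 and Tfap2a were under 1 FPKM in every library. Endoderm markers had 0 of 6 called by edgeR, 0 at an unadjusted p under 0.05 and 0 by DESeq2, with 1 higher without 4.5DDC replicate 1 and, over 21 alternatives, up to 4 higher and up to 1 lower, and Sox17 and Afp were under 1 FPKM throughout. Of 2 tested pluripotency markers 0 were called by edgeR, at an unadjusted p under 0.05 or by DESeq2, and Pou5f1, Nanog, Zfp42 and Esrrb were under 1 FPKM. Oligodendrocyte precursor markers had 0 of 3 called by edgeR, 3 at an unadjusted p under 0.05, and 1 higher and 1 lower by DESeq2, with 1 lower without 4.5DDC replicate 1 or 5.5DDC replicate 1 and up to 2 lower over the alternatives. The part of these cell types in the members' changes was not tested.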

How the data were processed

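RNA from 9 libraries of sorted progenitors was analysed, 3 per time point. The deposited gene table holds estimated counts (expected counts) per symbol, which the authors made with TopHat2 2.0.4 and HTSeq 0.6.1 after bcl2fastq 1.8.3, per the submitters' processing notes. Of its 38197 symbols 98 hold values that are not whole, none of them a gene listed here, and the plan had taken the unit to be plain counts, so values were rounded. The authors' FPKM were made with Cufflinks 2.1.1 and serve as levels per transcript length. Neither the annotation release nor the strand setting is given in the sources used here.

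Counts were filtered with filterByExpr, scaled by TMM and tested for time point in R 4.3.3 with edgeR 4.0.16 (quasi-likelihood test over all 9 libraries), with Benjamini-Hochberg adjustment over the 14742 genes tested at 0.05. Non-overlap was counted on scaled counts. The procedure was tested on simulated data. Alternatives were RLE scaling, library totals, other filters, DESeq2 1.42.0, limma 3.58.1 (voom, and log2 FPKM with 1 or 0.1 added), replicate blocks, replicates 2 and 3 alone, the 6 libraries compared, and leaving out each library. Pairing by replicate number was checked across genes: between 4.5DDC and 6.5DDC the correlations were 0.383, -0.0396 and -0.215, so for that span the block and the pairing serve only as alternatives, and between 5.5DDC and 6.5DDC they were 0.454, 0.367 and 0.197, with replicates 2 and 3 at 0.225 and 0.405 across numbers. Tables, promoters and figures were handled in Python 3.11.15 (pandas 2.3.3, numpy 2.4.6, matplotlib 3.10.9). Gene positions are from GENCODE on GRCm38 and promoters from RefSeq on GRCm38.p6.

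Genes are named by rule: members called for any pair of time points, Arl13b, the member with the highest mean FPKM and the one with the largest change in each role class, from each other list up to 2 called rises and 2 called falls, and Ptch1, Smo and Gli1 to Gli3. Other genes given with values were named outside this rule, with their values known. Members and lists were chosen with earlier results of these data known.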

Additional observations from a re-analysis of the deposited data

How the results depend on the processing

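The median log2 fold change of the members kept its sign under all 21 alternatives, between 0.20 and 0.37 over the whole span, between 0.12 and 0.26 for the first day, and between 0.07 and 0.23 for the second. Of 861 comparisons of a named member with an alternative, 807 kept direction and side of the threshold, 42 lost the call, 8 gained one and 4 turned sign. All 42 losses fell among the 12 members called over the whole span. The other comparisons had no call to lose, so the 807 do not measure how stable the calls were. Among counts of called genes in the lists, 884 of 1008 stayed within 1.5 times their value and 124 did not. Many of these counts were 0 with every library included, and staying at 0 was taken as kept. The 884 are therefore no measure of how stable the calls were.

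Members called from 4.5DDC to 6.5DDC were 12, and between 2 and 12 when each library was left out in turn, with 11 higher and between 1 and 11. The replicate block gave the same 11 risers and Evc, beside 13% higher and 10.2% lower of all genes tested, DESeq2 gave 12 higher and 1 lower, beside 12.6% and 12.4%, and 1 member was lower under all 21 alternatives. The cause was not tested. From 4.5DDC to 5.5DDC, 0 members became 1 with the replicate block, 1 with a block of replicate 1 against 2 and 3 (beside 2.52% higher and 0.767% lower of all genes tested), and 1 with replicates 2 and 3 alone, and 0 without any single library. From 5.5DDC to 6.5DDC, 0 members became 1 with DESeq2, 1 with the block of replicate 1 against 2 and 3 (beside 2.42% higher and 1.88% lower of all genes tested), and 2 with replicates 2 and 3 alone, and 0 without any single library. The cause was not tested. The difference between the days gave 0 members under all 20 alternatives that could be fitted.

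Tctn2 from 5.5DDC to 6.5DDC, at 0.04, turned to -0.04 without 5.5DDC replicate 2, -0.06 without 5.5DDC replicate 3, -0.03 without 6.5DDC replicate 1 and -0.01 without 6.5DDC replicate 3, within a range of -0.06 to 0.25 over the single libraries left out and beside a standard error of 0.21, and the cause was not tested.

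Depth limits the genes with few reads, of which Kif17 had from 12 to 109 counts and Nphp4 as few as 69. With 3 libraries per time point and replicate 1 apart, members that were not called are not shown to be unchanged. Several calls lie near the threshold, and 10 of the 12 called members lost their call in at least 1 alternative, with Kif3a and Evc as the exceptions.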
